A study of Mus musculus with 12 samples.

Results

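The genes described here are 35 genes of the cell cycle and DNA replication in the mouse distal colon, chosen by name from what they are known to do and found by their gene symbols among the 35241 symbols of the deposited table. All 35 were found, and all 35 passed the filter on low values (a mean of at least 0.5) that left 15880 genes to test. Of them, 12 belong to S phase and 23 to G2 and mitosis. RNA was sequenced from full-thickness distal colon, so that epithelium, lymphoid tissue and muscle are measured together. The 6 Spry2IEKO mice carry 2 floxed Spry2 alleles and Cre under the villin promoter, which deletes Sprouty2 in the intestinal epithelium and leaves it in the other cells. The 6 Spry2FF mice carry the same floxed alleles without Cre and serve as controls. None of the mice had been treated, the labels name no strain, and they give an age of 6 weeks in one place and of 8 weeks in another. Each genotype was drawn from litters A and B, 3 mice from either. Sex was uneven: 3 Spry2FF mice were male and 3 female, whereas 1 Spry2IEKO mouse was male and 5 female.

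Before it divides, a cell copies its DNA once in S phase and then parts the copies in mitosis. The Mcm proteins form the ring that unwinds DNA at replication forks, Pcna is the clamp that holds polymerase on DNA, and Rrm1, Rrm2 and Tyms make the building blocks. Cdk1 with its cyclins starts mitosis, after which kinesins, Aurora kinases and centromere proteins move the chromosomes. In the colon, dividing cells lie in the lower part of the crypts, while the cells of the surface no longer divide, and B cells divide quickly in the germinal centres of lymphoid follicles.

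S phase and mitotic genes are known to be switched on in turn through different promoter elements: E2F sites for many genes of S phase, and pairs of CCAAT boxes with a CHR element for many mitotic genes. The promoters of 5 members are shown because the members of each phase differed in these letters. They are the 200 bases before the RefSeq start on GRCm38.p6, read 5′ to 3′ on the strand of the gene. Capitals mark CCAAT, the CHR letters TTTGAA or TTCGAA, and the E2F letters TTTGGCGC, TTTCGCGC, TTTCCCGC or TTTGCCGC, each on either strand. The positions are chr7:135716380-135716579 (minus strand) for Mki67, chr10:69352913-69353112 (minus) for Cdk1, chr4:118437344-118437543 (minus) for Cdc20, chr8:75109309-75109508 (plus) for Mcm5 and chr1:128359706-128359905 (minus) for Mcm6.
Mki67: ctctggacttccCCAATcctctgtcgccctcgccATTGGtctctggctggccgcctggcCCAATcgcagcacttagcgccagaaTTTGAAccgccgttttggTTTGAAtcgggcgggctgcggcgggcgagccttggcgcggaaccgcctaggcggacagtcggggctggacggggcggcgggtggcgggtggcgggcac
Cdk1: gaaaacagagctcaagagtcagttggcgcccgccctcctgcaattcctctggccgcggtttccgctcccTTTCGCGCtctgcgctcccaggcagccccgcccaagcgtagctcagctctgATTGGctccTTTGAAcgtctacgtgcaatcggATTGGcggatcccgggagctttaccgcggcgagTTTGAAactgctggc
Cdc20: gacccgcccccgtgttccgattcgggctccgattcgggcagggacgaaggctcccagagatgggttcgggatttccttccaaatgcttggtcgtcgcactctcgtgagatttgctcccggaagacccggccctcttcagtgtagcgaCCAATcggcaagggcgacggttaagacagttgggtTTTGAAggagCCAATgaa
Mcm5: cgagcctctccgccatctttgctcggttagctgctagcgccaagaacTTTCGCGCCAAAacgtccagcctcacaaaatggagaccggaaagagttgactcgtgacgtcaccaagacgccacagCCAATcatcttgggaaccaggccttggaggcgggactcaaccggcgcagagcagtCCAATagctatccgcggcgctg
Mcm6: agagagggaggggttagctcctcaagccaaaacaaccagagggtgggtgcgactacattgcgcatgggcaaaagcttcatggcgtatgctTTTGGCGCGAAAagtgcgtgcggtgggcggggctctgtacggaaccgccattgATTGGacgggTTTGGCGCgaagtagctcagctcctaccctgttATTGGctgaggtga

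In the capitals of Mcm5 and Mcm6, E2F letters of both strands overlap. RefSeq windows of 300 bases (250 before to 50 after the start) were at hand for 28 members, and those of Ccna2, Ccne2, Mcm4, Aurkb, Foxm1, Kif20a and Tpx2 were not used. The CHR letters stood in 14 of 18 windows of mitotic members, in 2 of 10 of S phase members, and in 19.2% of the 32851 windows of all genes. The E2F letters stood in 1 of 18, in 4 of 10, and in 2.26% of all windows. CCAAT stood in 16 of 18, in 8 of 10, and in 37.4% of all windows. These are matches of letters and do not show that a factor binds there.

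The values are transcript abundances (TPM, reads normalized for transcript length and for the reads of the library) that the authors scaled once more between mice, summed here over the transcripts of each gene, and are called signal. Because they are per length, levels can be compared between genes. Their totals ran from 918816 to 1069158 in a mouse and are not read counts, so the read depth is not known and counting intervals are not given. Spry2 itself was 18.5 to 22.5 in Spry2IEKO mice and 22.8 to 32.3 in Spry2FF mice, which do not overlap. Epcam, the epithelial adhesion molecule, was 924 to 1162, and the summed signal of 5 smooth muscle markers ran from 2544 to 6375 and that of 5 fat markers from 20.1 to 761. The labels give each sample as a separate mouse. Gene positions are from GENCODE M21 on the GRCm38 build.

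All 35 genes were expressed in every mouse at moderate levels, with means over the 12 mice from 5.11 (Ccne1, cyclin E1) to 102 (Pcna) and a median of 17.1. The middle gene varied between mice with a coefficient of variation of 15.6%, next to 14.6% for the middle of the 9266 genes whose means lay in the same range. In 23 of the 35 genes the highest mouse was less than 2 times the lowest. Ube2c, which loads ubiquitin for the anaphase-promoting complex, was the steadiest, with 6.80% and a ratio of 1.26. Ccne2, cyclin E2, varied most, with 43.0% and a ratio of 3.14.

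Mki67 (ENSMUSG00000031004, chromosome 7, 135689784 to 135716361), the gene of the proliferation antigen Ki-67, was 26.2, 23.5, 18.0, 25.1, 26.6 and 18.4 in Spry2FF replicates 2, 3, 7, 9, 10 and 13. It was 21.5, 24.8, 20.8, 23.8, 25.5 and 27.6 in Spry2IEKO replicates 4, 5, 6, 8, 11 and 12. The lowest mice were the Spry2FF replicates 7 and 13 and the highest was Spry2IEKO replicate 12, and the genotypes overlapped over most of the range. The means were 22.98 ± 3.83 (SD, n = 6) in Spry2FF and 24.0 ± 2.53 (SD, n = 6) in Spry2IEKO mice, and their difference was smaller than the spread between mice (two-sided exact permutation test, p = 0.582). Exchanging mice within litters alone gave p = 0.595 in the same exact test. Over both single genes tested by exact permutation, Mki67 and Cd79a, the adjusted p was 0.582 for exchange over all mice and 0.595 for exchange within litters.

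Summed over the 12 S phase genes, the signal of Spry2FF mice was 267 to 382 (median 309), and that of Spry2IEKO mice 243 to 377 (median 346). Summed over the 23 mitotic genes, it was 345 to 514 with a median of 467 in Spry2FF and 431 to 505 with a median of 454 in Spry2IEKO mice. The genotypes overlapped in both sums. The lowest S phase sum was that of Spry2IEKO replicate 8, which was below its gene mean in all 12 S phase genes and the lowest of the 12 mice in 10 of them. Its mitotic sum of 431 was the third lowest, and the mean deviation of its S phase genes from the gene means minus that of its mitotic genes was -0.45 on the log2 scale. That mouse is the 1 male of its genotype, with the highest smooth muscle sum of all mice (6375) and the lowest sum of 5 stem cell markers (54.4), whose part in the values was not tested. The other 3 males had S phase sums of 304, 304 and 313.

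The lowest mitotic sum, 345, was that of Spry2FF replicate 7, a female of litter A, which was the lowest mouse in 15 of the 23 mitotic genes and in 2 of the S phase genes. Spry2FF replicate 13, a female of litter B, was below the gene mean in 21 of the 23 mitotic genes and in 6 of the 12 S phase genes. Spry2FF replicate 7 and replicate 13 had the highest sums of the stem cell markers, 80.7 and 79.1, and epithelial marker sums of 6606 and 7308 within a range of 5381 to 7939. Whether these markers bear on the mitotic genes was not tested. The highest mitotic sums were those of Spry2FF replicate 2 (514), Spry2FF replicate 10 (508) and Spry2IEKO replicate 12 (505).

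**Figure D1:**
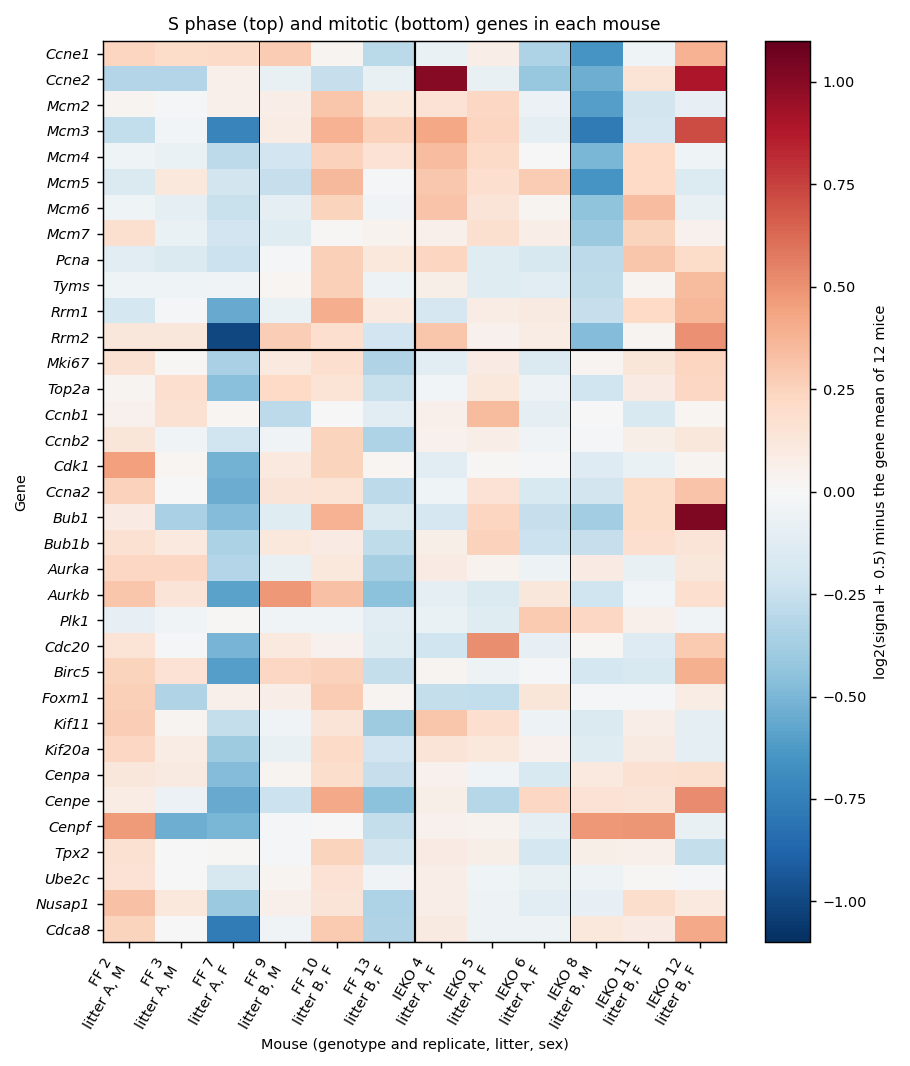
Each gene (rows) in each mouse (columns) as log2(signal + 0.5) minus the gene's mean over the 12 mice, red above and blue below it, with the 12 S phase genes above the line and the 23 mitotic genes below it. The column of Spry2IEKO replicate 8 is blue through all 12 S phase genes, and that of Spry2FF replicate 7 is blue through most mitotic genes, of which it is the lowest mouse in 15.

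The genotype comparison asks whether epithelial loss of Sprouty2 goes with other levels of these genes in the whole tissue. By limma on log2(signal + 0.5), 0 of the 35 genes had an adjusted p under 0.05 (the threshold, adjusted over every gene tested), where 5 of the 15880 genes (0.0315%) did. Without adjustment, 0 of the 35 had a p under 0.05, next to 6.18% of all genes. The genotypes overlapped in all 35 genes, and they were apart in 0.403% of all genes. The log2 difference was above 0 in 26 of the 35 genes, next to 52.1% of all genes, and its median was 0.07 next to 0.01 over all genes. It was above 0 in 9 of 12 S phase genes (median 0.07) and in 17 of 23 mitotic genes (median 0.07). Leaving out each mouse in turn, the S phase median ran from 0.01 without Spry2FF replicate 7 to 0.18 without Spry2IEKO replicate 8. With all mice, the differences of the 35 genes ran from -0.22 to 0.34. All 35 intervals of 95% lay between -1 and 1, and 27 lay between -0.5 and 0.5, so that for those 27 a change by 0.5 on the log2 scale lay outside the interval. In whole tissue, fewer cells of a type and less RNA in each cell cannot be told apart.

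Among the S phase genes, Mcm2 (ENSMUSG00000002870, chromosome 6, 88883474 to 88898780), a subunit of the replicative helicase, was 11.1 to 13.9 with a median of 11.7 in Spry2FF mice and 7.15 to 13.1 with a median of 10.5 in Spry2IEKO mice. Its 4 lowest values were all in Spry2IEKO mice and its highest was in a Spry2FF mouse. The log2 difference was -0.19 (SE 0.129, adjusted p = 0.855 by limma). Mcm5 (ENSMUSG00000005410, chromosome 8, 75109569 to 75128439), of the same ring, was 14.1 to 21.7 with a median of 15.8 and 10.6 to 20.8 with a median of 19.5. In the Spry2IEKO group, 4 mice were near 20 and 2 were at 10.6 and 15.1, and the log2 difference was 0.06 (SE 0.164).

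Pcna (ENSMUSG00000027342, chromosome 2, 132249162 to 132253314) was 85.6 to 121 with a median of 95.9 in Spry2FF and 82.6 to 125 with a median of 104 in Spry2IEKO mice, a log2 difference of 0.05 (SE 0.119). Rrm2 (ENSMUSG00000020649, chromosome 12, 24708241 to 24714146), the regulated subunit of ribonucleotide reductase, was 5.49 to 13.9 with a median of 12.6 and 8.10 to 16.5 with a median of 12.03. Its lowest value was in Spry2FF replicate 7, and the log2 difference was 0.17 (SE 0.216). Ccne1 (ENSMUSG00000002068, chromosome 7, 38097984 to 38107534), which drives entry into S phase, was 3.98 to 6.19 with a median of 5.84 and 3.01 to 6.69 with a median of 4.77, a log2 difference of -0.22 (SE 0.169). The Spry2IEKO group held both the lowest and the highest mouse of Ccne1.

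Tyms (ENSMUSG00000025747, chromosome 5, 30058202 to 30073617), thymidylate synthase, was 43.5 to 54.3 with a median of 44.0 and 37.1 to 57.8 with a median of 43.9. Its log2 difference was -0.03 (SE 0.0988). Of its summed signal, 24.2% was assigned to protein-coding transcripts and 64.2% to 1 transcript annotated to undergo nonsense-mediated decay. These shares are estimates from pseudoaligned reads, and whether the reads were assigned to the right transcripts was not tested. The remaining S phase genes, Mcm3, Mcm4, Mcm6, Mcm7, Rrm1 and Ccne2, had log2 differences between 0.06 and 0.34, with the highest in Ccne2.

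Among the mitotic genes, Cdk1 (ENSMUSG00000019942, chromosome 10, 69335146 to 69352938), the kinase of mitosis, was 32.1 to 63.4 with a median of 48.4 in Spry2FF and 41.9 to 47.3 with a median of 44.7 in Spry2IEKO mice. All 6 Spry2IEKO values lay inside the Spry2FF range, and the log2 difference was -0.11 (SE 0.126). Its partner Ccnb1 (ENSMUSG00000041431, chromosome 13, 100778650 to 100786570), cyclin B1, was 13.6 to 18.8 with a median of 16.9 and 14.8 to 21.4 with a median of 16.9, a log2 difference of 0.05 (SE 0.1002). Its highest value was in Spry2IEKO replicate 5.

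Top2a (ENSMUSG00000020914, chromosome 11, 98992943 to 99024189), which untangles chromosomes, was 35.6 to 57.6 with a median of 52.5 and 42.3 to 57.9 with a median of 50.5. The ranges nearly coincided at their upper ends, and the log2 difference was 0.04 (SE 0.121). Aurkb (ENSMUSG00000020897, chromosome 11, 69045647 to 69051664), the kinase that corrects chromosome attachment, was 9.12 to 19.6 with a median of 16.4 and 11.9 to 16.0 with a median of 13.3, a log2 difference of -0.07 (SE 0.178). In the Spry2FF group, 4 mice were at 15.4 to 19.6 and replicates 7 and 13 at 9.12 and 10.04. Cdc20 (ENSMUSG00000006398, chromosome 4, 118432901 to 118437352), which turns on the anaphase-promoting complex, was 11.6 to 18.7 with a median of 17.0 and 14.3 to 24.1 with a median of 16.3, a log2 difference of 0.12 (SE 0.144).

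The lowest unadjusted p of all members were those of Cenpf and Cenpe, centromere proteins of mitosis. Cenpf (ENSMUSG00000026605, chromosome 1, 189640606 to 189688086) was 3.63 to 7.82 with a median of 4.95 in Spry2FF and 5.07 to 7.91 with a median of 5.68 in Spry2IEKO mice, a log2 difference of 0.29 (SE 0.183, adjusted p = 0.846 by limma). Spry2FF replicate 2, at 7.82, was near the highest Spry2IEKO mice. Cenpe (ENSMUSG00000045328, chromosome 3, 135212537 to 135273611) was 3.67 to 7.70 with a median of 5.04 and 4.44 to 8.30 with a median of 6.32, a log2 difference of 0.27 (SE 0.178, adjusted p = 0.852 by limma).

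The other mitotic genes, among them the cyclins Ccna2 and Ccnb2, the kinases Plk1, Aurka, Bub1 and Bub1b, the kinesins Kif11 and Kif20a, the spindle proteins Tpx2 and Nusap1, the centromere histone Cenpa, the passenger proteins Birc5 and Cdca8, Ube2c and the transcription factor Foxm1, had log2 differences between -0.12 (Foxm1) and 0.21 (Bub1). In the females alone the median difference over the 35 genes was 0.20 with 31 above 0, and with sex as a covariate it was 0.08 with 24 above 0. The sex covariate turned the median of the S phase genes to -0.03 with 5 of 12 above 0, while that of the mitotic genes was 0.10. Without Spry2FF replicate 7 it was 0.01 with 19 above 0, and with litter and Epcam as covariates it turned to -0.03 with 13 above 0. In each of these fits 0 of 35 passed the threshold. Marker lists of other cells also leaned one way between genotypes, and their part in the values was tested with Epcam and Cd79a as covariates alone. The summed signal of 7 epithelial markers was 6479 to 7939 in Spry2FF and 5381 to 6779 in Spry2IEKO mice, and 1 of the 7 was above 0 in the genotype fit, with a median of -0.21 and 4 unadjusted p under 0.05. All 10 B cell markers (median 1.11) and all 5 germinal centre markers tested (median 0.33) were above 0, and 0 markers of these lists passed the threshold. Of the germinal centre markers 1 had an unadjusted p under 0.05, Rgs13 with a difference of 1.31, and of the B cell markers 0 did.

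**Figure D2:**
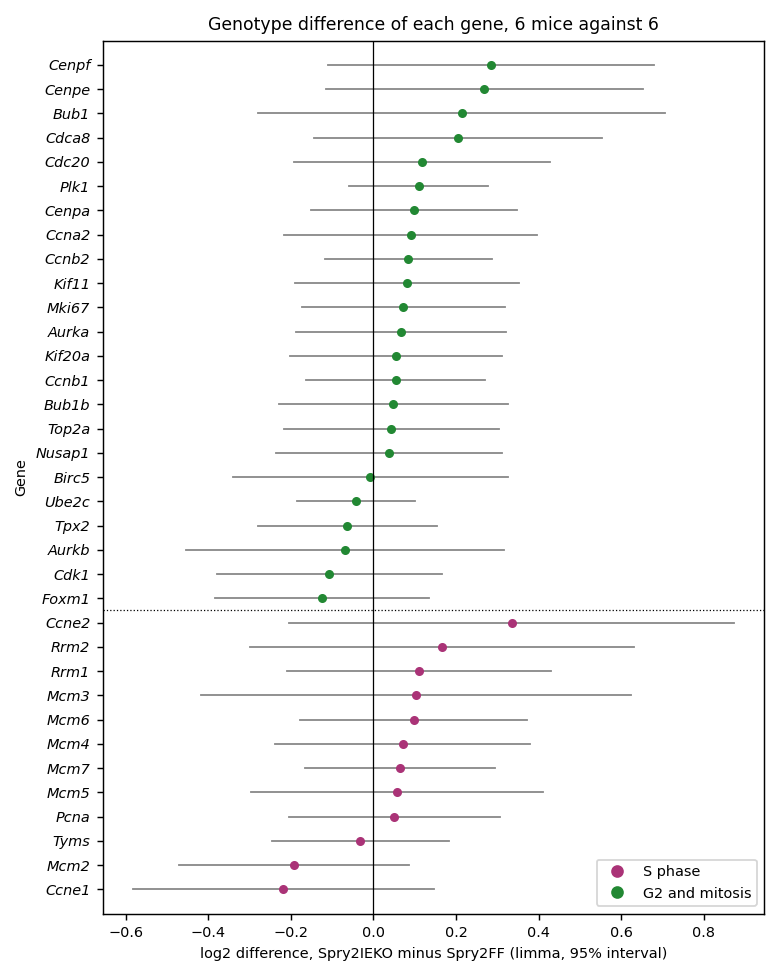
Dots are the log2 difference, Spry2IEKO minus Spry2FF, of each gene by limma on log2(signal + 0.5), with its 95% interval as a line, for 6 mice of each genotype. All 35 intervals cross 0, and the dots run from -0.22 (Ccne1) to 0.34 (Ccne2).

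The litters were set side by side because each held both genotypes. With only 2 litters, the tests measure the spread between mice and cannot speak for litters in general. The names of the samples also carry a different prefix in each litter. Any difference in collection or processing that goes with the prefix therefore cannot be told apart from litter. With genotype as a term, 0 of the 35 genes passed the threshold between litters B and A, next to 4.38% of all genes, and 0 had an unadjusted p under 0.05, next to 21.9%. No member had litters that did not overlap, whereas 3.72% of all genes did. The log2 difference, litter B minus litter A, was above 0 in 23 of the 35 genes, next to 41.2% of all genes, with a median of 0.06 next to -0.05. It was above 0 in 17 of 23 mitotic genes and in 6 of 12 S phase genes, whose medians were 0.06 and 0.00. Among markers of other cells, 4 of 5 for surface colonocytes (median 0.53) and 2 of 4 for fat (median -1.74) had an unadjusted p under 0.05. Of 7 epithelial markers 3 did (median 0.12), and 1 passed the threshold, lower in litter B. Of the B cell, T cell and smooth muscle markers 0 did. Their part in the litter difference was tested with Epcam and Cd79a as covariates alone. The direction over the members depended on the scaling. With the totals of all mice set equal, the median was -0.02 over the members, with 15 of 35 above 0, and -0.12 over all genes. By quantile normalization it was 0.10 over the members, with 30 of 35 above 0, and 0.01 over all genes. Without Spry2FF replicate 7 the median was -0.03, with 14 of 35 above 0, and with protein-coding transcripts alone, an alternative chosen after seeing the data, it was -0.03. It was larger in the females alone, at 0.18 with 29 of 35 above 0, and with Epcam as a covariate, at 0.16 with 31 above 0. In the females alone 6 members had an unadjusted p under 0.05, next to 3175 of 15881 genes. Without Spry2IEKO replicate 8 the unadjusted count was 4, next to 3883 of 15877 genes. In each of these fits the share of members was below that of all genes.

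Ccnb1 had the lowest p between litters. It was 15.5 to 21.4 with a median of 17.4 in litter A and 13.6 to 17.0 with a median of 16.1 in litter B, a log2 difference of -0.18 (SE 0.087, adjusted p = 0.25 by limma). Rrm1 (ENSMUSG00000030978, chromosome 7, 102441695 to 102469771), the large subunit of ribonucleotide reductase, was 22.6 to 35.9 with a median of 31.3 and 27.9 to 44.2 with a median of 37.5, a log2 difference of 0.25 (SE 0.135, adjusted p = 0.295 by limma). Pcna was 85.6 to 119 with a median of 91.1 in litter A and 82.6 to 125 with a median of 113 in litter B, a log2 difference of 0.20 (SE 0.109, adjusted p = 0.316 by limma). In all 3 the litters overlapped, and in Pcna 5 of the 6 litter B mice were above 5 of the 6 litter A mice.

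The genotypes were also compared within each litter. In litter A the log2 difference, Spry2IEKO minus Spry2FF, was above 0 in 10 of 12 S phase genes with a median of 0.27, and in litter B it was above 0 in 1 of 12 with a median of -0.08. Ccne1, Ccne2 and Tyms had the same sign in both litters. Over all genes it was above 0 in 53.6% in litter A and 49.2% in litter B. Fitted in litter A alone, 4 of the 35 genes had an unadjusted p under 0.05, all of them of S phase, next to 1063 of 15864 genes. In litter B alone 1 did, also of S phase, next to 786 of 15860 genes. In either fit 0 of the 35 passed the threshold. The mitotic genes were above 0 in 15 of 23 in each litter, with medians of 0.05 and 0.08. By the limma term for the difference between these differences, 0 of 35 genes passed the threshold, next to 0.0126% of all genes, and 1 had an unadjusted p under 0.05, next to 4.19%. That term was above 0 in 16 of 35 genes, next to 46.2% of all genes, in 1 of 12 S phase genes and in 15 of 23 mitotic genes. The gene with an unadjusted p under 0.05 for this term was Mcm2, with -0.55 (SE 0.205, adjusted p = 0.998 by limma). Marker lists of other cells leaned one way in this term too. All 4 fat markers tested had an unadjusted p under 0.05 (median -3.84), and 0 of 10 B cell markers were above 0 (median -0.97). Of 5 surface colonocyte markers, 4 were above 0 (median 0.45). With Cd79a as a covariate the S phase median of the term was -0.29 against -0.34, and the part of the other markers was not tested.

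Mcm2 was 11.1 to 11.6 in Spry2FF and 10.6 to 13.1 in Spry2IEKO mice of litter A, and 11.8 to 13.9 and 7.15 to 10.4 in litter B. The genotypes overlapped in litter A and did not in litter B. The helicase subunits Mcm4, Mcm5 and Mcm6, singled out after their values were seen, were higher in all 3 Spry2IEKO mice than in all 3 Spry2FF mice of litter A: Mcm4 at 13.48 to 17.24 against 10.96 to 13.04, Mcm5 at 19.2 to 20.8 against 14.6 to 18.3, and Mcm6 at 32.1 to 39.2 against 26.5 to 30.5. In litter B their genotypes overlapped, with Mcm5 at 10.6 to 19.7 in Spry2IEKO and 14.1 to 21.7 in Spry2FF mice. Ccne1 was lower in all 3 Spry2IEKO mice of litter A, and Plk1, the kinase that organizes the spindle, was higher in all 3 Spry2IEKO mice of litter B, at 33.46, 29.63 and 27.81 against 26.14 to 27.74, the last of the 3 by a narrow margin. In all, the genotypes did not overlap in 4 of 35 genes in litter A and in 2 of 35 in litter B, next to 11.9% and 10.1% of all genes.

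All 3 Spry2IEKO mice of litter A were female and 2 of the 3 Spry2FF mice male, so that genotype and sex can hardly be told apart there. With sex as a covariate, chosen after seeing the data, the median of the term over the S phase genes was -0.22 with 3 of 12 above 0, and 0 of 35 genes had an unadjusted p under 0.05. Without Spry2IEKO replicate 8 the median of the term over the S phase genes moved from -0.34 to -0.15, and without Spry2FF replicate 7 to -0.18, while 0 of 35 genes passed the threshold in each case; leaving out each mouse was chosen as an alternative after seeing the data.

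**Figure D3:**
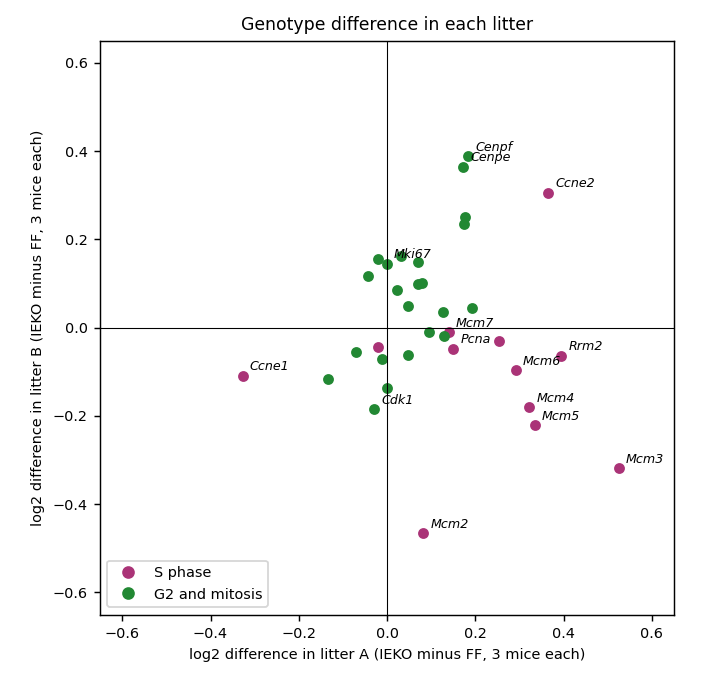
Each dot is a gene, placed by its log2 difference between genotypes (Spry2IEKO minus Spry2FF, on log2(signal + 0.5), 3 mice of each) in litter A on the x axis and in litter B on the y axis. Most S phase genes lie to the lower right, among them Mcm3 at 0.52 and -0.32 and Mcm5 at 0.33 and -0.22, and Mcm2 lies lowest at -0.47 in litter B.

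The genes were then set against Cd79a, a part of the B cell receptor and so a sign of lymphoid follicles in the piece of colon. Cd79a was 0.0832 to 42.4 with a median of 1.48 in Spry2FF mice and 1.39 to 85.5 with a median of 12.9 in Spry2IEKO mice. It split the mice into 5 at 23.2 to 85.5 (Spry2FF replicates 3 and 10, and Spry2IEKO replicates 4, 6 and 11) and 7 at 2.604 or less, and both sets held mice of each genotype and litter. The means of 14.4 ± 20.8 and 24.1 ± 32.5 (SD, n = 6 each) differed by less than this spread (two-sided exact permutation test, p = 0.582).

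In a limma fit of the log2 change per unit of log2(Cd79a + 0.5), with genotype and litter as terms, 0 of the 35 genes passed the threshold, next to 2.47% of all genes, and 1 had an unadjusted p under 0.05, next to 9.11%. Such a unit is a doubling where Cd79a is high and more than a doubling where it is near or below 0.5. The slope was above 0 in 29 of 35 genes, next to 53.1% of all genes. Its median was 0.04 over the S phase genes, of which 11 of 12 were above 0, and 0.01 over the mitotic genes, of which 18 of 23 were, next to 0.00 over all genes. Leaving out each mouse in turn, the S phase median ran from 0.02 without Spry2IEKO replicate 8 to 0.05 without Spry2IEKO replicate 5. It was 0.01 in litter A alone and 0.04 in litter B alone. In the fit over all mice 8 of 9 other B cell markers passed the threshold, with slopes of up to 0.99 (Cd79b). Of 5 germinal centre markers tested (Bcl6, S1pr2, Rgs13, Gcsam and Mybl1), 0 passed, 1 had an unadjusted p under 0.05 and 5 had slopes above 0, with a median of 0.09. All 5 were highest in Spry2IEKO replicate 4, the mouse with the highest Cd79a. S1pr2 was 5.06 and Gcsam 2.37 in that mouse, and at most 1.56 and 0.768 in the others, so that their slopes lean on a single mouse.

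Mcm5 had the lowest p and the steepest slope of all members, 0.08 per unit (SE 0.0287, adjusted p = 0.301 by limma), or 0.59 over the whole range of 7.20 units with a 95% interval of 0.14 to 1.05. It was 18.3 to 21.7 in the 5 mice with high Cd79a, and in the other 7 it was 10.6 to 16.6 except for Spry2IEKO replicate 5 at 19.2. Mcm6 (ENSMUSG00000026355, chromosome 1, 128331590 to 128359664) had a slope of 0.05 (SE 0.026, adjusted p = 0.598 by limma) and Pcna one of 0.04 (SE 0.0216, adjusted p = 0.601 by limma). Mki67 had a slope of 0.00 (SE 0.026), which over the whole range of Cd79a amounts to 0.01 with an interval of -0.41 to 0.42. Without Spry2FF replicate 10, 0 genes had an unadjusted p under 0.05, and 20 of 35 slopes were above 0. Since Cd79a lies in a high and a low set of mice, the slope rests on the difference between them.

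**Figure D4:**
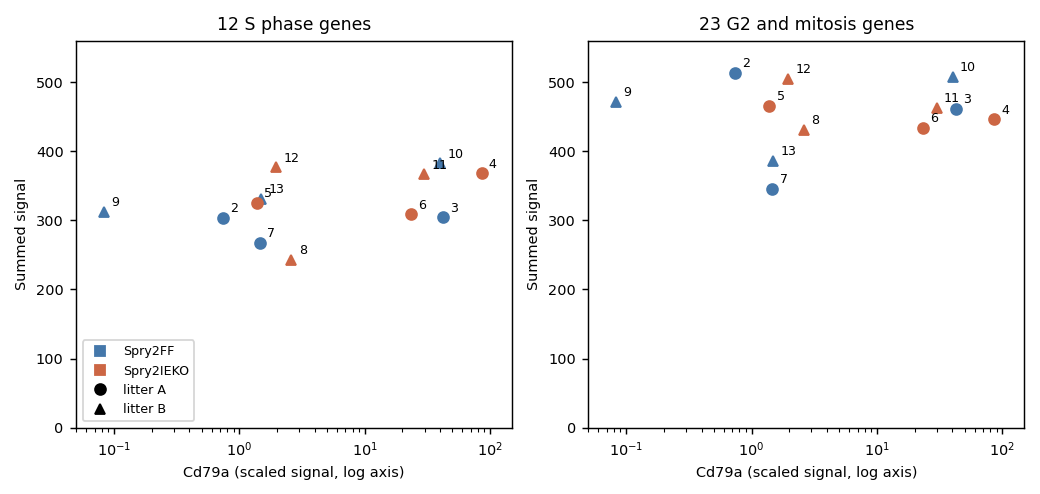
Each point is a mouse, with Cd79a on a log axis and the summed signal of the 12 S phase genes (left) or the 23 mitotic genes (right) on an axis from 0; colours are genotypes, shapes litters and numbers replicates. The S phase sums of the 5 mice with Cd79a at 23.2 or more ran from 304 to 382 and those of the other 7 from 243 to 377.

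In 4 genes, chosen after their values were seen, some of the spread between mice lay in the signal assigned to single transcripts. Whether the assignment of reads to transcripts had a part in this was not tested. Ccne2 was 12.7 in Spry2IEKO replicate 4, where 5.88 came from a processed transcript that was at most 0.79 in the other mice. In Spry2IEKO replicate 12 it was 11.6, of which 6.405 came from a coding transcript that was at most 1.47 in the other mice, and 0.0528 from the coding transcript that led in most of them. Mcm3 was 28.0 in Spry2IEKO replicate 12, of which 13.5 was an intron-retaining transcript, while its coding transcript, at 10.9, was within the range of 7.54 to 16.7 of the other mice. Bub1, a kinase of the spindle checkpoint, was 12.02 in the same mouse, with 5.77 from a processed transcript and 5.79 from the coding one. Cdc20 was 24.1 and 20.7 in Spry2IEKO replicates 5 and 12, where its coding transcript was at 11.31 and 11.98, within its range of 10.4 to 17.4 in Spry2FF mice.

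With protein-coding transcripts alone the largest coefficient of variation among the 35 genes was 28.6% instead of 43.0%, but the middle one was 15.8% next to 15.6%, and it was higher for Tyms (19.7% instead of 12.3%) and Cenpa (22.4% instead of 13.3%). In the same values the median genotype difference was 0.07 with 29 of 35 above 0, and 0 of 35 passed the threshold. For Mki67, coding transcripts held all of the signal and 1 of them held 99.9%, whereas they held 46.9% for Top2a and 25.2% for Cenpa. Kif11 is listed under 2 Ensembl identifiers with identical values, each 50% of its sum.

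**Figure D5:**
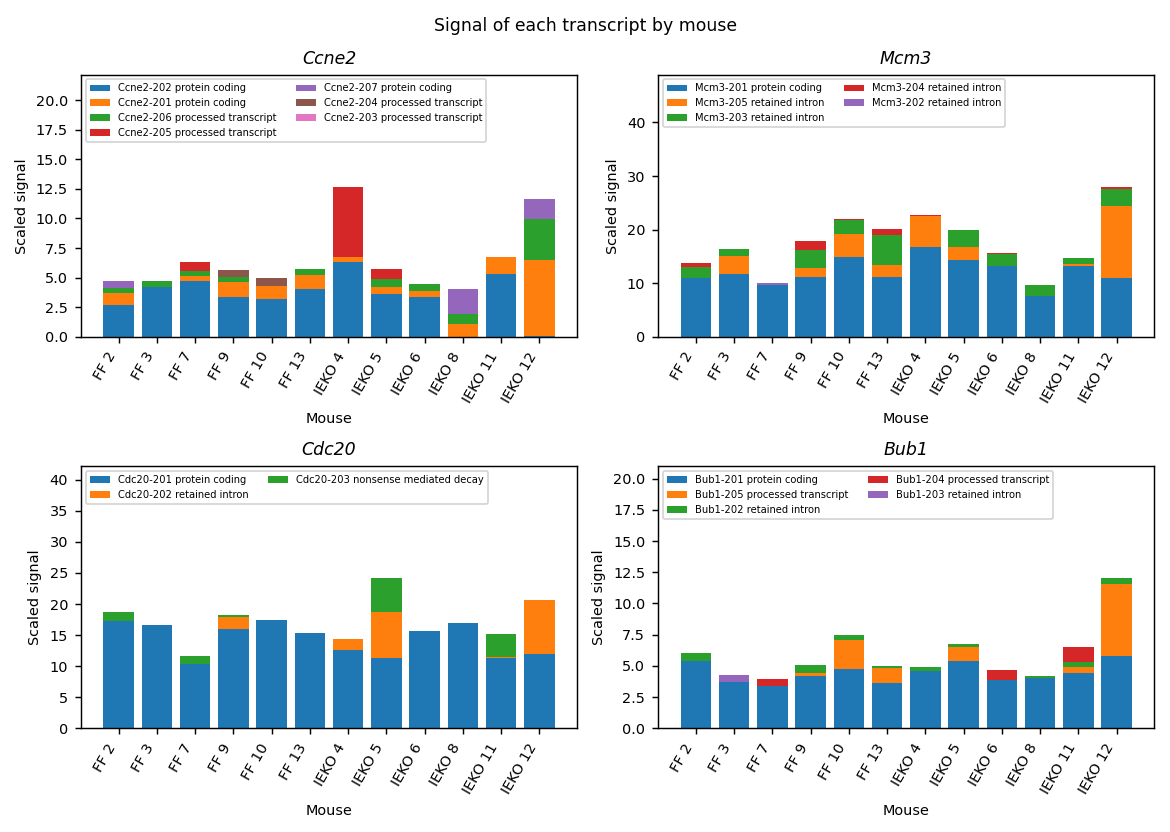
Stacked bars give the signal of each transcript of Ccne2, Mcm3, Cdc20 and Bub1 in each mouse, on axes from 0, with the transcript's annotated type in the key. The tall bars of Spry2IEKO replicate 12 in Mcm3 and Bub1 hold 13.5 and 5.77 of signal from 1 transcript each that encodes no protein, next to coding parts of 10.9 and 5.79.

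Beyond the 35 genes, 99 other genes of the cell cycle were listed, of which 98 were tested. They comprised 17 genes of G1 and the restriction point, 7 CDK inhibitors, 37 genes of origins and forks and 38 further genes of mitosis. Between genotypes, 0 of 98 passed the threshold and 0 had an unadjusted p under 0.05, and 66 of 98 differences were above 0 with a median of 0.04. Against Cd79a 0 passed, 5 had an unadjusted p under 0.05 and 80 of 98 slopes were above 0, where 2.47%, 9.11% and 53.1% of all genes did. For the genotype by litter term 0 passed and 2 had an unadjusted p under 0.05. Between litters 1 of 98 passed and 11 had an unadjusted p under 0.05, which are smaller shares than the 4.38% and 21.9% of all genes. The gene that passed was Gins1, a subunit of the complex that travels with the Mcm ring. It was 3.54 ± 1.05 (SD, n = 6) in litter A and 5.69 ± 1.41 (SD, n = 6) in litter B, a log2 rise of 0.63 (SE 0.159, adjusted p = 0.0457 by limma). With Epcam as a covariate 0 of 15880 genes passed between litters, so Gins1 no longer did.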

How the data were processed

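Full-thickness distal colon of 12 mice was sequenced. The authors pseudoaligned reads to the mouse transcriptome with kallisto (sleuth and mm10 are also named in the submitters' processing notes) and deposited a signal for each transcript, TPM scaled once more between mice. The tests had been planned for TPM and were kept. Of 113974 entries, 781 repeated a transcript and were dropped, and the rest were summed to 35241 gene symbols. Read depth is unknown.

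With limma 3.58.1 in R 4.3.3 (lmFit, eBayes with trend, two-sided, Benjamini-Hochberg over all genes), log2(signal + 0.5) was fitted over 15880 genes (mean signal 0.5 or higher) for genotype, litter, the Cd79a slope and genotype by litter. The pseudocount understates changes of low genes. Mki67 and Cd79a were also compared by exact permutation. The fits were tested on simulated data. Python 3.11.15, NumPy 2.4.6, pandas 2.3.3 and matplotlib 3.10.9 were used.

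Members and lists were chosen with earlier results of these data known. Named genes were 12 members, Cd79a and the 3 members with the lowest p in the genotype, litter and Cd79a fits; other genes are said to be singled out. Alternatives were the pseudocount, the filter, covariates, each litter or females alone, rescaling, other regressors and leaving out each mouse. The deposited table also holds p-values and q-values of the authors' own test, which were not used. A further gene of the rule is not reported here. The p-values here measure the spread between mice.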

Additional observations from a re-analysis of the deposited data

Results flagged for a closer look

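In 6 of 72 groups of 6 mice (35 genes and Cd79a in each genotype), the highest or lowest mouse stood apart by more than 0.625 of the group's range; chance gives about 1 in 20 groups. Mcm7, a subunit of the replicative helicase, was 20.8 in Spry2IEKO replicate 8 and 28.8 to 33.1 in the other Spry2IEKO mice. Spry2IEKO replicate 12 stood apart in 3 mitotic genes: Bub1 was 12.02 there and 4.20 to 6.73 in the others, Birc5 was 41.6 against 27.7 to 32.3, and Cdca8 was 26.3 against 18.8 to 21.3. Tyms reached 54.3 in Spry2FF replicate 10, against 43.5 to 46.0 among the other Spry2FF mice. Cd79a was 85.5 in Spry2IEKO replicate 4 and 1.39 to 29.9 in the other Spry2IEKO mice.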

How the results depend on the processing

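In all 104 fits, 0 of the 35 genes passed an adjusted p of 0.05 by limma; the unadjusted count was 0 to 6. No paired analysis was possible because the genotypes share no replicate numbers; litter served as the block instead, and with it as a covariate the median genotype difference was 0.07 with 26 of 35 above 0. Setting the totals of all mice equal moved the median litter difference of all genes from -0.05 to -0.12. Leaving out each mouse in turn, the median over the members was 0.01 to 0.11 for genotype, -0.03 to 0.10 for litter and 0.01 to 0.03 for the Cd79a slope. Epcam, in place of Cd79a, gave a median slope of -0.90 per unit of log2(Epcam + 0.5), with 6 of 35 above 0. In that fit 5 members, all mitotic, had an unadjusted p under 0.05, next to 596 of 15878 genes, and the median over all genes was -0.15. Epcam ran only from 924 to 1162, a ratio of 1.26, whereas Cd79a spanned 7.20 units. The slopes per unit are therefore not on the same footing. Some small differences that passed no threshold changed sign, and the cause was not tested. With litter and Cd79a as covariates the genotype difference of Pcna was -0.004353 and of Mcm5 -0.04558. By quantile normalization the litter difference was 0.01316 for Ccne1 and 0.02907 for Mcm6, and with Cd79a as a covariate 0.01804 for Mcm6. The Cd79a slope of Mki67 was -0.003885 by quantile normalization, -0.003022 with Epcam as a covariate and -0.001891 without the 2 mice farthest from the median of Cd79a. With Epcam as a covariate that of Cdk1 was -0.0004535, and without the 2 mice that of Cenpf was 0.004088. With 6 mice a genotype, the middle 95% interval of a member's genotype difference reached 0.28 to either side.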
